A study of Nasonia vitripennis with 39 samples.

Results

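Doublesex (Dsx) is 1 of 14621 genes in the deposited count table of the wasp Nasonia vitripennis, and its row, found by symbol, gave an estimated count and a TPM value in each of 39 RNA-seq libraries. All animals belonged to the Whiting Polyploid Line (WPL) and were taken 1 day after emergence, with no treatment named in the labels. In this laboratory line, which arose spontaneously, males occur as haploids (1N) and diploids (2N) and females as diploids (2N) and triploids (3N). The genotypes were labelled WPL_LSL_1N, WPL_LSL_2N and WPL_LSL_3N. Poly(A) RNA was sequenced from heads and from abdomens, giving 8 groups of 5 libraries each, except the 2N female abdomens with 4. The labels do not say whether a library held 1 animal or a pool, nor do they pair heads with abdomens, so the p-values below measure the spread between these libraries. An abdomen is a mixture of ovary or testis, fat body, gut, cuticle and nerve cord, and in bulk RNA fewer cells of a type and less RNA per cell cannot be told apart.

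Dsx encodes a transcription factor with a DM domain and stands near the end of the insect sex determination cascade. Its transcripts are spliced differently in the sexes, so that females and males make proteins that share the DNA-binding part and differ at the end. Upstream of it, Tra (transformer) is the splicing regulator that is active in females. Tra directs the female splice forms of Dsx and of Fru (fruitless), the latter best known from Drosophila as a regulator of male courtship circuits. Nasonia is haplodiploid: fertilised eggs become females, unfertilised eggs become males, and diploid males of the polyploid line arise from the unfertilised eggs of triploid mothers. The comparison of 2N females with 2N males therefore sets the sexes side by side at equal ploidy.

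The libraries held 16.3 to 132.03 M estimated counts, with 20 libraries under 30 M and 19 above it. Depth class and group overlapped in part: all 5 of the 2N female heads were shallow and 4 of the 5 2N male heads were deep. Dsx itself was deeply covered, with 2024 to 42200 estimated counts in the 20 heads and 10 male abdomens, 181 to 485 in the 2N female abdomens and 545 to 18543 in the 3N female abdomens. At the lowest count, 181, counting error alone spans 86.0% to 116% of the value (exact Poisson 95% interval). Tissue labels were checked with marker genes. A list of 15 neuronal genes summed to 1175 to 2518 CPM in heads and 18.5 to 411 CPM in abdomens. A list of 7 ovary and germ line genes summed to 895 CPM or more in every female abdomen and to at most 155 CPM in every other library. Among the 3N female abdomens, library B39A stood apart, and among the 2N female heads, library B21; values without B39A or B21 are given beside the results they touch.

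In heads, Dsx was higher in females than in males, and in abdomens of 2N animals it was far lower in females than in males. Triploid females did not follow 2N females in the abdomen, where their libraries spread from near the 2N female level to the male level. CPM values below are counts-per-million scaled by TMM, a normalisation for library composition. TPM values are the authors' transcripts-per-million, which also divide by transcript length.

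The 1N male heads had Dsx CPM values of 122 (B1A), 127 (B2A), 119.4 (B3), 119.3 (B4A) and 193 (B5D). In the 2N male heads the values were 155 (B11), 127 (B12A), 103 (B13), 128 (B14) and 107 (B15). The male heads thus lay close together whatever their ploidy, with B5D above the rest. Female heads at 2N gave 154 (B21), 244 (B22), 236 (B23), 257.0 (B24) and 256 (B25). At 3N they gave 333 (B31), 306 (B32), 239 (B33), 220.2 (B34A) and 252 (B35A). Every female head but B21 exceeded every male head, and B21 fell below the highest male library of each ploidy. On the TPM scale no female head overlapped the male heads: the 10 male heads lay between 41.3 and 77.5 TPM, and the 10 female heads between 114 and 208 TPM. The share of all genes that separate the heads by TPM is not given here, so this describes Dsx only.

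In male abdomens Dsx was high and even. The 1N values were 423 (B6A), 439 (B7), 421 (B8), 377 (B9) and 445 (B10) CPM, and the 2N values were 415 (B16), 360.4 (B17), 417 (B18), 449 (B19) and 452 (B20) CPM. Those 10 libraries overlapped fully between ploidies. The 4 abdomens of 2N females had 11.9 (B26A), 11.3 (B27), 12.3 (B28A) and 8.23 (B30) CPM, the lowest Dsx levels of the series. The 5 abdomens of 3N females had 442 (B36A), 349 (B37A), 206 (B38), 22.3 (B39A) and 204 (B40A) CPM. All of them were above all 2N female abdomens, and they reached from near the 2N female level to the male level.

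**Figure D1:**
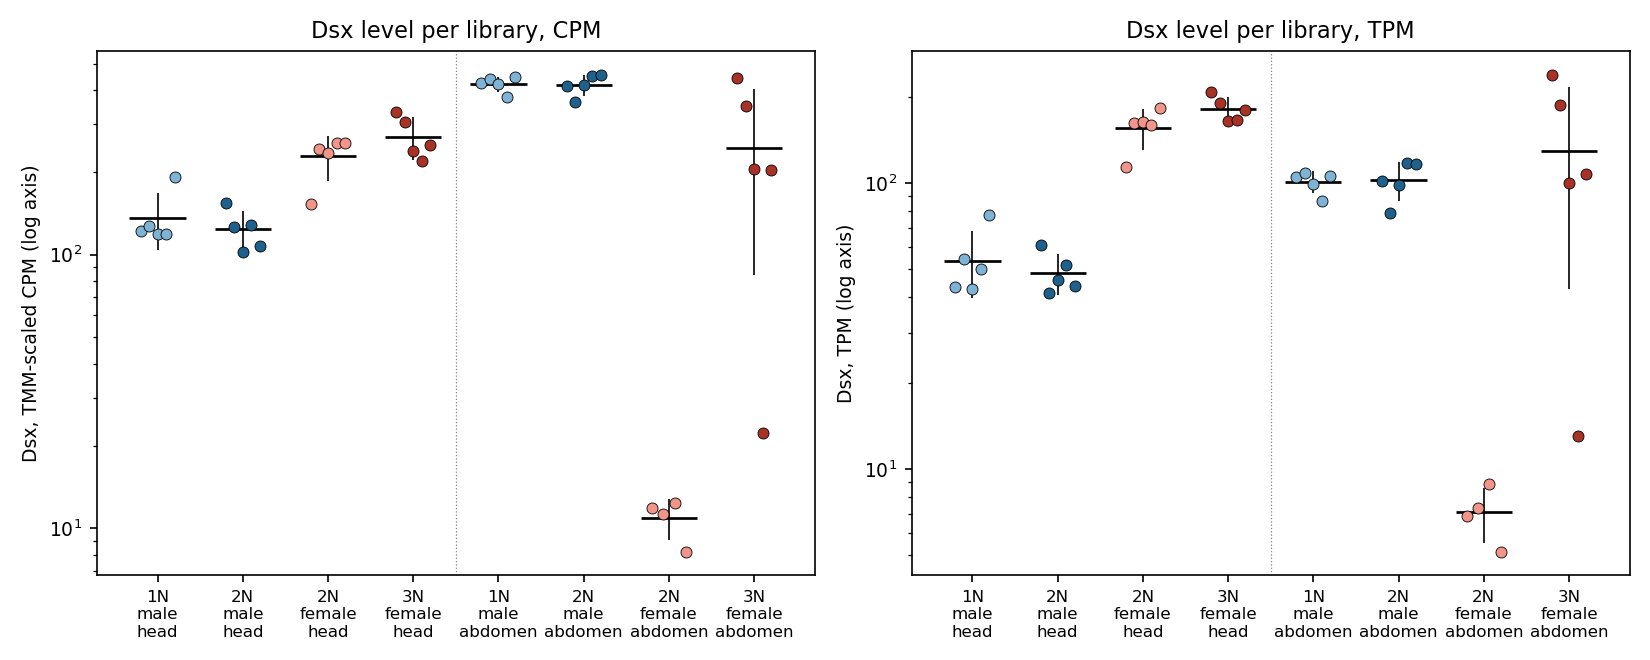
Dsx level in every library by group, as TMM-scaled CPM (left) and TPM (right), both on log axes; points are libraries, horizontal lines group means and vertical lines 1 SD. The 2N female abdomens lie lowest on both scales, between 8.23 and 12.3 CPM, and the 3N female abdomens span 22.3 to 442 CPM.

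By mean CPM the groups ran, from the top, 1N male abdomen (421 ± 26.7, SD, n = 5), 2N male abdomen (419 ± 36.9, n = 5), 3N female head (270.0 ± 47.6, n = 5), 3N female abdomen (245 ± 160.2, n = 5, or 300.4 ± 117 without B39A), 2N female head (229 ± 43.2, n = 5), 1N male head (136 ± 31.7, n = 5), 2N male head (124 ± 20.6, n = 5) and 2N female abdomen (10.9 ± 1.86, n = 4). Only 2 pairs of neighbours in this order had ranges that did not overlap, 2N male abdomen above 3N female head and 2N male head above 2N female abdomen. The order depended on the scale. By TPM the female heads came first, at 182 ± 18.1 for 3N and 157 ± 25.8 for 2N, followed by 3N female abdomen (130.03 ± 87.5, or 159 ± 67.1 without B39A), 2N male abdomen (103 ± 16.1), 1N male abdomen (101 ± 8.73), 1N male head (53.7 ± 14.2), 2N male head (48.8 ± 7.88) and 2N female abdomen (7.07 ± 1.54). In that order, too, 2 pairs of neighbours did not overlap, 1N male abdomen above 1N male head and 2N male head above 2N female abdomen. The 2N female abdomen was last on both scales.

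The gap between the scales had the same direction in every sex comparison. In 2N heads the female mean was 1.85 times the male mean by CPM and 3.22 times by TPM. In 2N abdomens the male mean was 38.3 times the female mean by CPM and 14.5 times by TPM. The abdomens of 3N females stood at 0.585 times the 2N male mean by CPM and at 1.26 times by TPM. A gene's count divided by its TPM is proportional, within a library, to the mean length of the transcripts to which its reads were assigned, provided that both tables come from the same quantification, and this ratio was taken as a measure of its own.

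The implied transcript length of Dsx separated the sexes in every library. It is given as a ratio to the median gene of the same library. In male heads it was 2.03, 2.08, 2.15, 2.06 and 2.10 at 1N (B1A to B5D) and 2.19, 2.12, 2.12, 2.17 and 2.15 at 2N (B11 to B15). In male abdomens it was 2.06, 2.17, 2.18, 2.16 and 2.11 at 1N (B6A to B10) and 2.20, 2.12, 2.18, 2.12 and 2.13 at 2N (B16 to B20). All 20 male libraries therefore lay in a narrow band from 2.03 to 2.20, heads and abdomens alike. Female heads had 1.21, 1.33, 1.29, 1.35 and 1.27 at 2N (B21 to B25) and 1.41, 1.39, 1.34, 1.25 and 1.36 at 3N (B31 to B35A). Female abdomens had 1.06, 0.993, 0.896 and 1.15 at 2N (B26A, B27, B28A and B30) and 1.20, 1.18, 1.20, 1.20 and 1.13 at 3N (B36A to B40A). The 19 female libraries ranged from 0.896 to 1.41, below every male library, and their heads lay above their abdomens. The share of all genes whose implied length separates the sexes in this way is not given here, so this describes Dsx only.

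**Figure D2:**
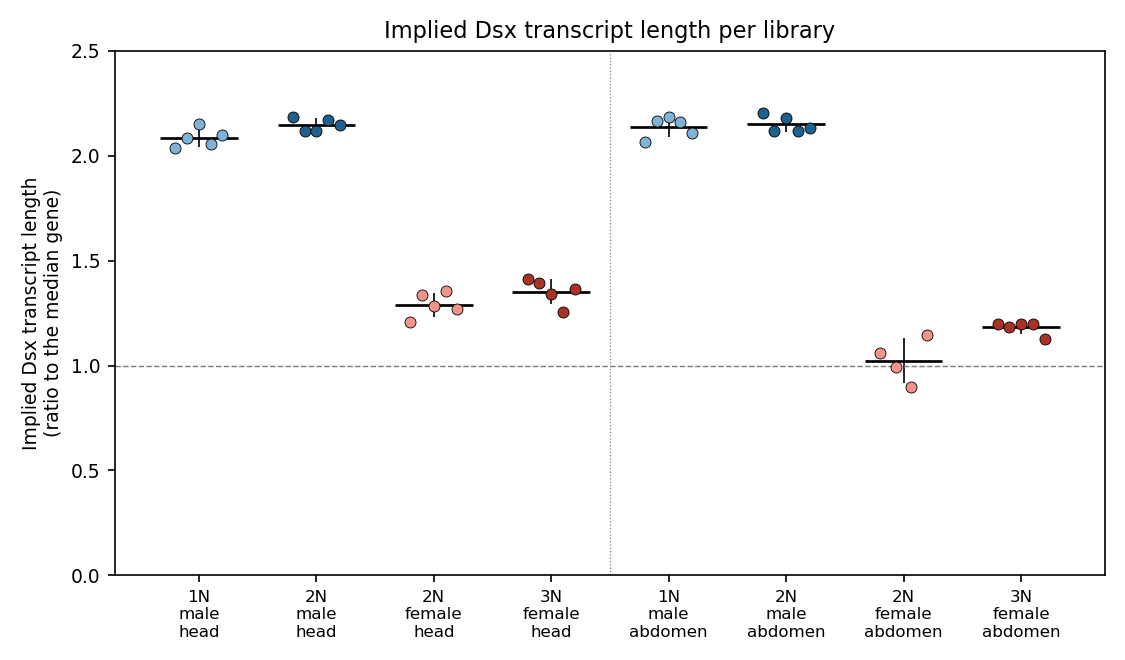
Implied Dsx transcript length in every library, as the ratio of Dsx's count over TPM to that of the median gene of the library (dashed line at 1); points are libraries, horizontal lines group means and vertical lines 1 SD. All 20 male libraries lie between 2.03 and 2.20 and all 19 female libraries between 0.896 and 1.41.

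In 2N heads the female minus male difference of implied length was -0.73 ± 0.03 (log2, SE; limma, adjusted p = 5.57e-11), with the mean in males 1.67 times that in females. Small length differences were common in that comparison, where 64.1% of 8678 genes passed the test, but 0.0922% of genes (8) passed it with a difference over 0.5. Only 3 genes, Dsx included, differed by as much as Dsx. Between 2N females and 1N males the head difference was -0.69 ± 0.03 (limma, adjusted p = 1.4e-10), the largest of all 8678 genes, of which 0.530% passed. In 2N abdomens the difference was -1.08 ± 0.05 (limma, adjusted p = 7.88e-11), a ratio of 2.11 between males and females, where 0.847% of 6963 genes passed with a difference over 0.5. Between 2N females and 1N males it was -1.07 ± 0.05 in abdomens (limma, adjusted p = 9.05e-11; 12.9% of genes passed). The sex difference was larger in abdomens than in heads by -0.34 ± 0.06 (2N animals, limma on all 39 libraries, adjusted p = 2.4e-05; 16.8% of 6763 genes passed). The 2N male means were 2.15 in heads and 2.15 in abdomens, and the 2N female means were 1.29 in heads and 1.02 in abdomens.

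**Figure D3:**
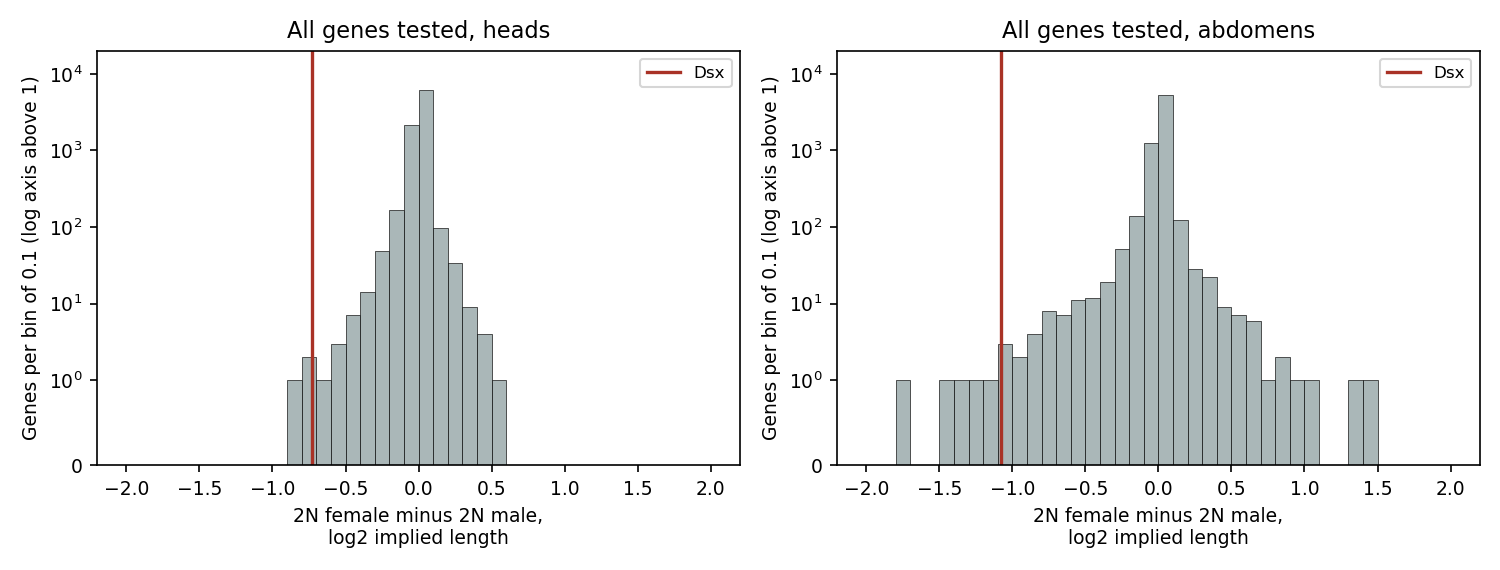
Distribution over all genes tested of the 2N female minus 2N male difference in implied transcript length (log2, horizontal axis) in heads (8678 genes) and abdomens (6963 genes), with genes per bin on the vertical axis (logarithmic above 1). The line marks Dsx, at -0.73 in heads and -1.08 in abdomens, in the thin lower tail of each.

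Ploidy moved the implied length of Dsx less than sex did, and the difference passed the test in female abdomens only. The share of genes that differed by at least as much as Dsx was 7.32% in male heads and 20.98% in male abdomens. In female heads that share was 3.04%, and in female abdomens it was 0.761%. In male heads the 2N minus 1N difference was 0.04 ± 0.03 (limma, adjusted p = 0.302; 32.3% of genes passed), and in male abdomens it was 0.01 ± 0.04 (limma, adjusted p = 1; 0.0431% of genes passed). Between 3N and 2N female heads the difference was 0.07 ± 0.03 (limma, adjusted p = 0.104). None of the 8678 genes passed in that comparison with limma, and 3491 had an unadjusted p under 0.05. In female abdomens the 3N values were higher by 0.21 ± 0.05 (limma, adjusted p = 0.0347; 1.09% of genes passed). That call was lost when any of B27, B28A, B36A or B37A was left out, with adjusted p from 0.0592 to 0.134, and 3 of the 4 2N female libraries with few Dsx reads lay below all 3N libraries while B30 lay among them.

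The files do not give transcript-level values, so which transcripts differ was not analysed here. Over all 39 libraries the SD of Dsx's log2 implied length was 0.43. The 2864 genes with a single RefSeq transcript had a median SD of 0.00493 and none reached the SD of Dsx. Among the 3899 genes with 2 or more transcripts the median was 0.0201, and 23 were at least as variable as Dsx, for which RefSeq (Nvit_psr_1.1) lists 8. Fru, with 16 transcripts, had an SD of 0.17. Its implied length was shorter in 2N female than 2N male heads, by -0.33 ± 0.06 (limma, adjusted p = 0.00029), where 64.1% of genes passed. The other sex contrasts of Fru did not pass. Between 2N females and 1N males the difference was -0.24 in heads (limma, adjusted p = 0.0886) and -0.20 in abdomens (limma, adjusted p = 0.199). In 2N abdomens it was -0.25 (limma, adjusted p = 0.0858). Tra, with 2 transcripts, had an SD of 0.0042. In the same RefSeq table no annotated gene overlaps Dsx, which lies between pros and LOC100118619.

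The sex differences in level were then fitted across all genes with edgeR. Dsx had been picked for description with its opposite sex bias and its spread among 3N female abdomens already known from these data. The p-values of its level, those for ploidy included, therefore describe the fit and are no independent support. In 2N heads the difference, female minus male, was 0.86 ± 0.16 (log2 CPM, SE; edgeR, adjusted p = 0.000681), in a comparison where 27.9% of 10846 genes passed. Between 2N females and 1N males it was 0.73 ± 0.16 (edgeR, adjusted p = 0.0038; 21.6% of genes passed). The 3N females and 2N males, each with an extra chromosome set, differed by 1.11 ± 0.17 (edgeR, adjusted p = 8.46e-05; 20.8% of genes passed), with no overlap between the groups, as for 18.1% of genes. On the scale of log2(TPM + 1) the same contrasts were larger, at 1.66, 1.54 and 1.89, with adjusted p (limma) of 2.51e-07, 9.65e-07 and 4.38e-08.

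Depth and single libraries moved the head result little. The 2N contrast, in which the female libraries were shallow and most male libraries deep, was 0.91 with a term for depth class. Within shallow libraries the contrast of 2N females with 1N males was 0.71, and within deep libraries that of 3N females with 2N males was 1.23. Library B21, the low 2N female head, also carried 95.2 CPM of oskar, a germ line gene, against 8.26 to 16.01 CPM in the other 4 heads of its group. Its part in the result was not tested, but without B21 the 2N difference was 0.94 (edgeR, adjusted p = 0.00031).

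In abdomens the direction was opposite. In 2N animals the difference, female minus male, was -5.35 ± 0.59 (log2 CPM; edgeR, adjusted p = 1.45e-07), with no overlap between the groups, as for 80.6% of genes. Differences between female and male abdomens were the rule: 83.5% of 11884 genes passed, the median over all genes was -0.46, and 24.7% of genes differed by at least as much as Dsx. Against 1N males the difference was -5.40 ± 0.59 (edgeR, adjusted p = 1.36e-07; 83.6% of genes passed). On the log2(TPM + 1) scale the contrasts were -3.69 and -3.68. For 3N females against 2N males the difference was -0.64 ± 0.44 (edgeR, adjusted p = 0.198), with an approximate 95% interval of -1.51 to 0.23 (1.96 SE either side), where 74.9% of genes passed. That difference depended on the library set and the scale. It was -0.34 without B39A and -0.97 without B36A, the ends of the range with single libraries left out. With other tools and scales it ran from -1.22 (voom, adjusted p = 0.051) to -0.14 on the log2(TPM + 1) scale (limma, adjusted p = 0.808). By CPM, B36A (442) lay among the male abdomens (360.4 to 452) and the other 4 libraries of 3N females lay below all of them. By TPM, B36A (240.1) and B37A (189) exceeded all male abdomens, B38 (101) and B40A (108) lay among them, and B39A (13.1) lay below.

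The reversal between tissues was also fitted. Dsx had been picked with that reversal known, so the p-values below describe the fit and are no independent support. The sex difference in abdomens minus that in heads was -6.15 ± 0.53 for 2N animals (edgeR on all 39 libraries, adjusted p = 3.58e-12), where 74.5% of 12402 genes passed, and 17.6% differed by at least as much as Dsx. For 3N females and 2N males it was -1.90 ± 0.47 (edgeR, adjusted p = 0.0007; 64.6% of genes passed). That value became -1.67 without B39A. A change of sex difference between head and abdomen was thus shared with most genes tested.

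Seen within each kind of animal, male abdomens held more Dsx than male heads, by 1.63 ± 0.34 at 1N (log2 CPM; edgeR, adjusted p = 8.06e-05; 65.1% of genes passed) and by 1.76 ± 0.34 at 2N (edgeR, adjusted p = 2.97e-05; 65.3% passed). No male library overlapped between tissues, as for 43.7% of genes at 1N and 57.5% at 2N. On the log2(TPM + 1) scale those differences were 0.93 and 1.06. In 2N females the abdomen was lower than the head by -4.39 ± 0.42 (edgeR, adjusted p = 1.41e-11; 80.3% of genes passed), and on the log2(TPM + 1) scale by -4.29. In 3N females the difference was -0.14 ± 0.33 (edgeR, adjusted p = 0.711; 95% interval -0.79 to 0.50; 72.8% of genes passed). It was -0.97 on the log2(TPM + 1) scale (limma, adjusted p = 0.0202), and on the count scale it turned to 0.05 without B39A.

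**Figure D4:**
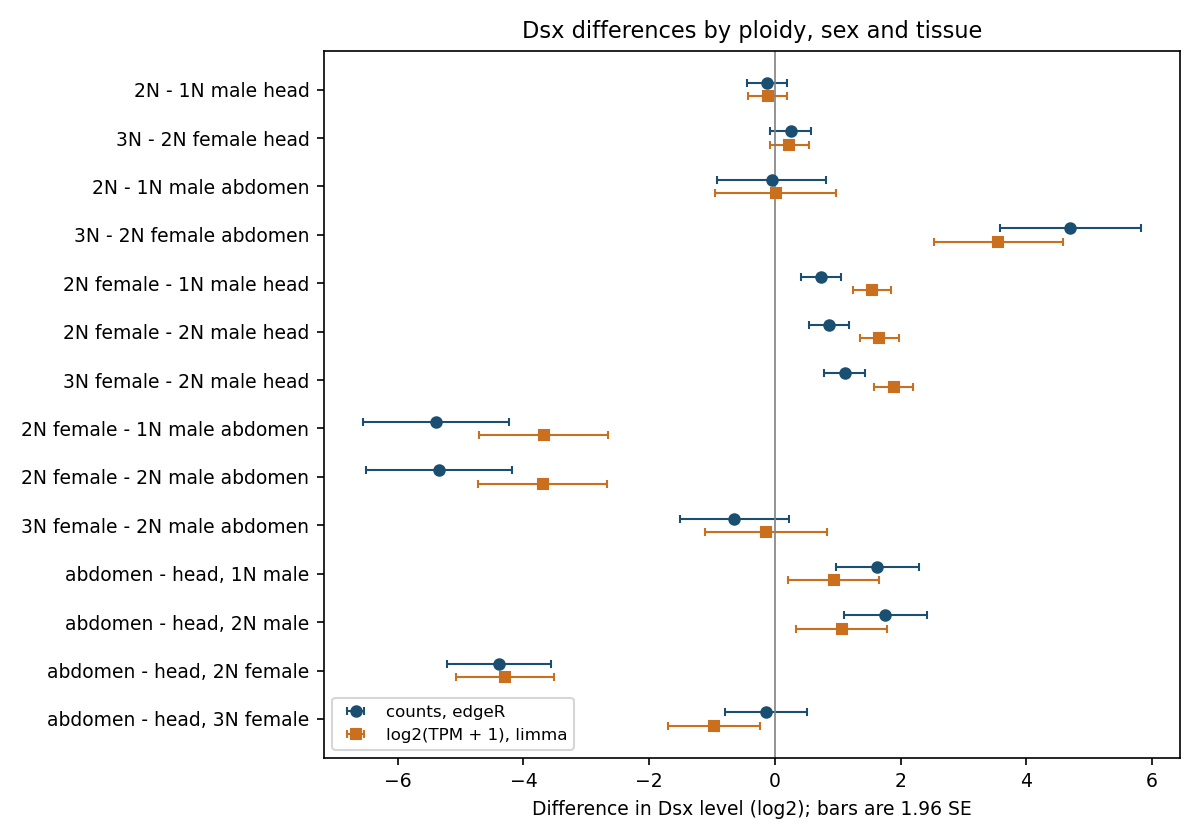
Differences in Dsx level (log2, horizontal axis) for each comparison, from edgeR on counts (circles) and limma on log2(TPM + 1) (squares); bars are 1.96 SE. Head sex differences lie to the right of 0 (0.73 to 1.11 by counts), 2N female abdomens lie far to the left of male abdomens (-5.35 and -5.40), and the 3N minus 2N female abdomen difference lies at 4.70.

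Ploidy was associated with Dsx level in female abdomens. In heads the 2N minus 1N difference of males was -0.13 ± 0.16 (edgeR, adjusted p = 0.802; 95% interval -0.45 to 0.19; 0.0738% of genes passed). It was 0.03 without B5D. The 3N minus 2N difference of female heads was 0.25 ± 0.16 (edgeR, adjusted p = 0.428; 95% interval -0.07 to 0.57; 0.313% passed). Depth class differed between those groups, and within shallow libraries the difference was 0.06. Male abdomens differed by -0.05 ± 0.44 (edgeR, adjusted p = 1; 95% interval -0.92 to 0.82; 0.0421% passed). Among these 3 comparisons no call was made for Dsx, and each interval allows differences of some size. Groups in a fit share a dispersion estimate for each gene, so the male abdomen interval also reflects the variable 3N female abdomens. With only the compared groups fitted, the male abdomen difference was -0.05 ± 0.11.

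In female abdomens the difference, 3N minus 2N, was 4.70 ± 0.57 (edgeR, adjusted p = 1.38e-05), where 38.7% of 11884 genes passed and 10.5% differed by at least as much as Dsx. The groups did not overlap, as for 26.9% of genes. On the log2(TPM + 1) scale the difference was 3.55 (limma, adjusted p = 0.000108). With only the compared groups fitted, the difference by counts was 4.75 ± 0.77 (edgeR, adjusted p = 0.0035). Within shallow libraries it was 4.81, and without B39A it was 5.03. The female ploidy difference was larger in abdomens than in heads by 4.25 ± 0.51 (edgeR, adjusted p = 8.67e-08; 32.3% of genes passed) and larger than the male ploidy difference in abdomens by 4.75 ± 0.69 (edgeR, adjusted p = 0.000153; 27.1% of genes passed). Without B39A those differences were 4.43 and 5.07. In heads the corresponding difference between the sexes was 0.38 ± 0.23 (edgeR, adjusted p = 0.58). No gene passed in that head comparison with edgeR, 1044 had an unadjusted p under 0.05, and DESeq2 called 12.

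The 3N female abdomens varied more in Dsx than any other group. Dsx was picked with this spread already known, so the values below are a description only. Relative to the mean of the 2N female abdomens, B36A stood at 40.5 times, B37A at 31.96 times, B38 at 18.9 times, B40A at 18.6 times and B39A at 2.04 times by CPM. By TPM the same libraries stood at 33.97, 26.7, 14.2, 15.3 and 1.85 times. The order of the libraries was the same on both scales but for B38 and B40A, whose CPM values were nearly equal. The SD of log2 CPM was 1.71 in this group and 0.09 to 0.31 in the other 7 groups. Within the 3N female abdomens 89.4% of 12402 genes had a smaller SD, and the median gene had 0.43. Without B39A the SD of Dsx was 0.56. The SD in this group was 0.82 for Tra and 0.35 for Fru.

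Marker lists moved with Dsx among the female abdomens. Ovary and germ line genes (oskar, nanos, Cdk1, Bora, Cenp-a, Cad and Gt were measured of 12 sought, and none was at 0) summed to 895 in B36A, 1115 in B37A, 1133 in B38, 1526 in B40A and 2070 CPM in B39A, and to 2180 to 2447 CPM in the 2N female abdomens. Higher Dsx thus went with a lower ovary sum among the 3N libraries and between the groups. Among the 2N libraries it did not, as B30 had both the lowest Dsx (8.23 CPM) and the lowest sum. B39A lay next to the 2N libraries on both measures. The oskar gene, whose product assembles germ plasm, showed the same order of 3N libraries with 391, 557, 634, 834 and 954 CPM. At 2N it lay at 974.7 to 1153 CPM. Not every member kept that order, and Bora, Cenp-a, Cad and Gt are not given singly here. Both nanos and Cdk1 broke it between B36A and B39A, their lowest and highest 3N libraries. In the same order of libraries nanos had 33.96, 59.9, 54.5, 40.95 and 127 CPM. Cdk1 had 182, 199, 188, 242 and 406 CPM. Male abdomens summed to 22.1 to 42.6 CPM on this list, with nanos at 0 in all 2N males.

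Somatic lists ran the other way. Over the 9 female abdomens Dsx spanned a range of 53.8 times, from B30 to B36A, and the sums of 35 cuticle genes 33.9 times, of 5 fat body genes 22.8 times, of 15 neuronal genes 5.31 times and of 3 muscle genes 3.20 times. Each of those sums was lowest in the 2N library B30 and highest in B36A, as Dsx was. The ovary sum spanned 2.73 times and was lowest in B36A. In the 3N females the cuticle sum was 1938 in B36A, 1389.7 in B37A, 836 in B38, 831 in B40A and 106 CPM in B39A. It was 57.1 to 107 CPM in the 2N females, where 17 of its 35 members were at 0 in every library. That number was 10 in the 3N female abdomens, 11 in each group of male abdomens and 6 to 11 in the groups of heads. The fat body sum was 60.0, 57.8, 24.7, 24.2 and 4.37 CPM in the same order of 3N libraries, 2.64 to 3.40 CPM at 2N and 318 to 433 CPM in male abdomens. The part of tissue makeup in the Dsx difference was not tested.

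**Figure D5:**
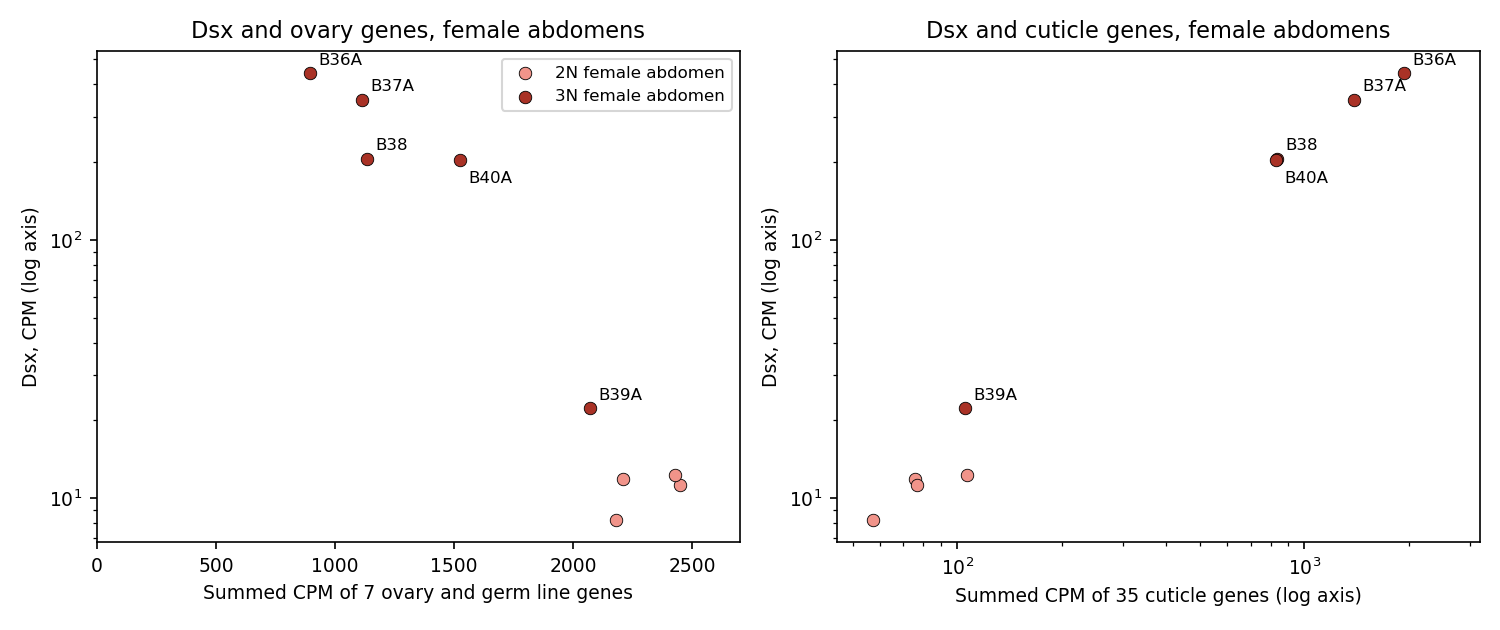
Dsx CPM (vertical, log axis) in the 4 abdomens of 2N females and the 5 of 3N females, against the summed CPM of 7 ovary and germ line genes (left, linear axis) and of 35 cuticle genes (right, log axis); each point is a library and the 3N libraries are named. B39A, at 22.3 CPM of Dsx, lies close to the 2N libraries on both horizontal axes.

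Of the other sex determination genes sought, Tra and Fru were found by symbol (2 of 11). Tra, the female splicing regulator upstream of Dsx, had 536 ± 30.1 CPM in 2N female heads and 66.6 ± 5.71 CPM in 2N male heads (SD, n = 5 each), and its difference was 2.99 ± 0.21 (edgeR, adjusted p = 7e-09). In 2N abdomens Tra was at 35.1 ± 3.55 CPM in females (n = 4) and 33.6 ± 6.07 CPM in males (n = 5), a difference of -0.02 ± 0.33 (edgeR, adjusted p = 0.95). In 3N female abdomens it reached 185 (B36A), 113 (B37A), 78.9 (B38), 39.2 (B39A) and 77.5 CPM (B40A). Its libraries fell in the same order as for Dsx, and its 3N minus 2N difference was 1.70 ± 0.34 (edgeR, adjusted p = 0.00069). Heads of 1N males held 84.6 CPM of Tra or less in 4 libraries and 157 CPM in B5D, the library that was also highest for Dsx.

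For Fru, in 2N heads the means were 154 ± 29.8 CPM in females and 111 ± 11.9 CPM in males, a difference of 0.45 ± 0.22 (edgeR, adjusted p = 0.137). On the log2(TPM + 1) scale that contrast passed, at 0.85 (limma, adjusted p = 0.00914). By counts Fru was higher in 2N female than 1N male heads, by 0.80 ± 0.22 (edgeR, adjusted p = 0.015; 21.6% of genes passed). Among those 1N male heads B1A was low in Fru, at 33.4 CPM against 89.6 to 105.7 CPM, and no value without B1A is given. In 3N female heads Fru was higher than in 2N male heads, by 1.03 ± 0.22 (edgeR, adjusted p = 0.0026; 20.8% of genes passed). Its 3N minus 2N difference in female abdomens was 0.22 ± 0.24 (edgeR, adjusted p = 0.487), and all 9 of those libraries lay between 30.9 and 56.0 CPM. Of 11 Hox genes sought, only Scr was matched, a segment identity gene of the labium and first thoracic segment. Scr was lower in 2N female than 2N male heads, by -2.67 ± 0.41 (edgeR, adjusted p = 0.00011), with means of 0.997 and 6.27 CPM. In 3N female heads its mean was 4.55 CPM, higher than in 2N female heads by 2.21 ± 0.41 (edgeR, adjusted p = 0.0306), and the difference of 3N females from 2N males was -0.47 ± 0.38 (edgeR, adjusted p = 0.409). It had 0 counts in all 9 female abdomens, where a count of 3, the limit that a count of 0 allows, would be 0.0378 to 0.174 CPM before TMM scaling. Male abdomens were low in Scr as well, with means of 0.593 CPM at 1N and 0.438 CPM at 2N, and B10 and B18 had 0 counts.

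Genes with the pattern most like that of Dsx were listed by Pearson's r of log2 CPM, as a description over libraries that share groups. Over 39 libraries the highest were LOC100120158 (0.98), LOC100122641 (0.97) and LOC100120779 (0.96). LOC100120158 had 55.3 ± 12.5 CPM in 1N male abdomens, 25.1 ± 2.02 CPM in 2N female heads, 11.9 ± 1.74 CPM in 2N male heads and 0.502 ± 0.24 CPM in 2N female abdomens, so it followed Dsx through heads and abdomens. The highest with a gene name were the cytochrome P450 CYP9P3 (0.93) and the carboxylesterases CCE-A8 (0.90) and CCE-E10 (0.90). Over the 20 heads alone LOC100117287 (0.93), LOC103316375 (0.93) and LOC100113972 (0.92) came first, and among named genes Tra (0.91, sixth in rank), the odorant receptor Or276 (0.89) and SP67 (0.88). With log2(TPM + 1) in place of CPM, Tra was the first of all 10845 genes in heads, at 0.98. Over the 19 abdomens LOC100118405, LOC100120714 and LOC100114679 each reached 0.99 or above, and the cuticular protein genes CPR20 (0.99) and CPR19 (0.99) and the cytochrome P450 CYP4AB23 (0.98) led the named genes. By Spearman's rho CPR20 fell to 0.66, CYP4AB23 to 0.69 and CPR19 to 0.75. Over 39 libraries CYP9P3 fell to 0.74 and CCE-A8 to 0.75 by rho, while CCE-E10 stayed at 0.90. With log2(TPM + 1) in place of CPM, Pearson's r over 39 libraries was 0.78 for CYP9P3, 0.73 for CCE-A8 and 0.78 for CCE-E10.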

How the data were processed

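Libraries were grouped by the labels' titles. STAR 2.7.11a and RSEM 1.3.1 are listed in the submitters' processing notes, without roles. No source used here gives the genome build or annotation. The authors deposited estimated counts per gene (expected counts) and TPM for all 39 libraries; 16.8% of the deposited count values were not whole, and all 39 of Dsx were whole (tolerance 0). Estimated counts were rounded and fitted with edgeR 4.0.16 (R 4.3.3; TMM, filterByExpr, quasi-likelihood F test, two-sided, Benjamini-Hochberg over all genes tested, threshold 0.05) in heads (20), abdomens (19) or all 39 libraries for contrasts across tissues. All groups in a fit shared a common dispersion estimate for each gene, so the SE of a contrast also reflects groups outside it. CPM values shown are TMM-scaled over all 39. Implied transcript length is log2(estimated count / TPM), centred on the library median, tested with limma 3.58.1 for genes with at least 20 counts and 0.5 TPM in every library of the fit. TPM was tested as log2(TPM + 1), which understates changes of low values.

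Alternatives were DESeq2 1.42.0, voom, other normalisations and filters, pseudocounts (1 and 0.1), a depth term, depth classes (added after seeing the data), and leaving out libraries. The scripts were tested on simulated data. Dsx, the lists and the tests were chosen with earlier results of these data known. Named genes were the 3 with the highest r and the 3 highest whose symbol does not start with LOC, plus matched members of the lists. Symbols were matched to RefSeq (14621 of 14621 genes, assembly Nvit_psr_1.1), used for names, neighbours and transcript numbers only; the symbol Nos, a nitric oxide synthase, was kept out of the germ line list. No sequence of Dsx was available here, and none is printed. Each library's precision is limited by its depth and, more, by the spread between libraries; intervals of counts cover counting error only.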

Additional observations from a re-analysis of the deposited data

Results flagged for a closer look

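Among 48 sets of libraries of 1 group, 6 held a library far from the others, and chance gives such a library in about 1 set in 20. In the 1N male heads Dsx stood at 192.5 CPM in B5D, where the other 4 libraries lay between 119 and 127 CPM. In the same library Tra stood at 156.7 CPM, against 64.4 to 84.6 CPM in the others. Fru was low in another 1N male head, B1A, with 33.4 CPM against 89.6 to 105.7 CPM. Among the 2N female heads B21 had 153.7 CPM of Dsx, against 236 to 257.0 CPM, and a summed CPM of the ovary and germ line genes of 155.3, against 55.1 to 74.6. The implied Dsx length of the 3N female abdomen B40A was 0.17 (log2 relative to the median gene), and the other 4 lay between 0.24 and 0.26.

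Effects on Dsx that differed between groups, each by a test of the difference itself, were the sex difference between tissues in 2N animals (-6.15, log2) and in 3N females and 2N males (-1.90), the female ploidy difference between abdomens and heads (4.25), the ploidy difference between sexes in abdomens (4.75) and the sex difference of implied length between tissues (-0.34). Dsx was picked with its reversal and its spread known, so the tests of its level are no independent support.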

How the results depend on the processing

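Of 555 recomputed values for 37 Dsx results, 532 kept their direction and, where tested, their side of the threshold; their size could still change. For 22 of 28 tested differences every alternative tried kept the direction and the call. The ploidy difference of male heads ranged from -0.22 to 0.03 when single libraries were left out, turning at 0.0308 without B5D. That of male abdomens was 0.0101 with either TPM pseudocount, and -0.08 to -0.00426 with single libraries left out. The abdomen minus head difference of 3N females was 0.0459 without B6A and B39A, -0.47 to 0.0466 with single libraries left out, and passed the test at -0.97 and -0.99 with TPM pseudocounts of 1 and 0.1. The implied length difference by ploidy was -0.00281 in male abdomens without B6A and B39A (-0.00264 to 0.0171 with single libraries left out), 0.0436 to 0.0935 in female heads (passing at 0.084 without B24) and 0.15 to 0.27 in female abdomens (the call lost in 4 cases). Levels relative to the mean of the 8 groups (log2) moved with the scale: 2N female head from 0.49 to 1.12 by TPM, 3N female head from 0.73 to 1.34 by TPM, 1N male abdomen from 1.37 to 1.08 by library totals, 1.49 by RLE and 0.49 by TPM, 2N male abdomen from 1.36 to 1.07 by library totals and 0.52 by TPM, and 2N female abdomen from -3.896 to -3.35 by TPM. The SD of 3N female abdomens, 1.71, ranged from 0.56 (without B39A) to 1.97. The causes were not tested.

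Counts of genes called, used only as background, moved by over 1.5 times in these comparisons of level: ploidy in male heads (8; 0 to 75), female heads (34; 1 to 1805), male abdomens (5; 0 to 71) and female abdomens (4605; 2249 within shallow libraries), ploidy by sex in abdomens (3217; 1477 to 5021) and in heads (0; up to 12), ploidy by tissue in females (4012; 2153 to 6063), and sex in heads at usual ploidy (2346; 1443). For implied length they moved for ploidy in female abdomens (76; 42 to 3407), female heads (0; up to 2457), male heads (2802; 0 to 1544 where it moved) and male abdomens (3; 1 to 5), for sex at usual ploidy in heads (46; 17 to 4086) and abdomens (900; up to 3598), and for sex at 2N in abdomens (903; 4229). The share of genes called in those comparisons is therefore a loose background.

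No paired analysis was possible because every library number occurs in 1 group only and the labels pair no libraries. Within depth classes several contrasts had fewer than 2 libraries a group and gave no value, the 2N sex contrasts among them. Depth limits the 2N female abdomens most, where Dsx had 181 to 485 counts.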
